A study of Homo sapiens with 8 samples.

Results

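The DNA replication origin and fork genes are 53 genes whose products license origins, unwind DNA, copy both strands and restore chromatin behind the fork. They were taken by symbol from the 2 deposited gene tables, and all 53 were found among the 25431 genes listed for 769-P and the 24190 listed for CAKI-1. Their levels were not a criterion of the choice, but the choice was made with earlier results of these data known. Both are established human cell lines labelled as clear cell renal cell carcinoma cells, a kidney cancer of the renal cell carcinoma (RCC) group, and were obtained from a cell repository. Each was kept for 16 hours with or without branched-chain amino acids (BCAA), with 2 libraries of total RNA per condition and 8 in all. The supplement held leucine and isoleucine at 0.38 mM each and valine at 0.17 mM, and was left out in the libraries without BCAA. 769-P had been grown in RPMI 1640 medium and CAKI-1 in MEM medium, both with serum and antibiotics. The study's methods describe its BCAA-depleted medium as RPMI 1640 rebuilt from powder free of amino acids, with dialyzed serum. How the other amino acids were restored is not given in the sources used here. The study's figure legend for its RNA-seq gives a larger n than the 2 libraries labelled per condition. No source says that the 2 libraries of a condition came from separate cultures, so the p-values measure the spread between libraries, which may be technical.

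Replication starts in separate steps. In G1 phase, the origin recognition complex together with CDC6 and CDT1 loads the MCM2 to MCM7 ring onto DNA in an inactive form, which is called licensing, and geminin blocks CDT1 once S phase has begun. In S phase, the kinase made of CDC7 and DBF4 acts on the loaded ring, CDC45 and the GINS complex join it to form the active CMG helicase, and polymerases follow the fork on a sliding clamp of PCNA. Many of these genes are transcribed in late G1 and S phase under E2F transcription factors, so their transcripts are widely read as marks of cells that are entering or passing through S phase.

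Between 30979773 and 64256834 reads lay on the listed genes of a library. In 769-P, depth and condition went together, with 64256834 and 55829324 reads with BCAA and 39062721 and 40130258 without. The values are reads per gene divided by a size factor of the library, here called normalized values. They are not divided by gene length, and the tables were scaled separately, so levels were compared only within a line. The least counted of the 53 genes in any library was POLE2, with 34 reads in CAKI-1 and 96 in 769-P, so no gene was near the floor of 3 reads. Of the markers of a renal carcinoma cell, PAX8, VIM, KRT8 and KRT18 were read in every library. PAX2 had values in 769-P and was not listed for CAKI-1, and CA9 was not listed for either line. NDUFA4L2 had 3 reads or fewer in 769-P and 91 to 215 reads in CAKI-1. Of 7 markers of other cell types, PTPRC, PECAM1, VWF and ALB had at most 12 reads in any library where they had a value, while PDGFRB was higher with BCAA in both lines (log2 fold change 1.88 and 0.58). COL1A1, the collagen gene of stromal cells, was abundant in CAKI-1 and higher there with BCAA, at 145197 and 120847 against 98609 and 116332 without (0.31, adjusted p = 0.043), and was not called in 769-P (-0.41, adjusted p = 0.069). No value of CD3E was used. The summed normalized value of the list was 341 and 308 with BCAA against 260 and 266 without in 769-P, and 146805 and 122018 against 99528 and 117256 in CAKI-1. In both lines this sum was higher in both libraries with BCAA, as the replication genes were, but different genes carried it. In CAKI-1 it was nearly all COL1A1. In 769-P, COL1A1 was lower in both libraries with BCAA (178 and 145 against 215 and 213) and PDGFRB higher (152 and 152 against 33.5 and 48.9). The part of the sum in the results below was not tested.

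Replication transcripts were higher with BCAA in both lines. Of the 53 genes, 51 were higher in 769-P, 1 was lower (RFC1) and 1 did not pass the test (ORC3). In CAKI-1, 48 were higher, none was lower and 5 did not pass (ORC2, ORC3, ORC4, ORC5 and RFC1). The median log2 fold change, taken as with minus without BCAA, was 0.99 in 769-P (1.99-fold, middle of the genes from 0.68 to 1.29) and 0.95 in CAKI-1 (1.93-fold, from 0.65 to 1.36). The same median over all genes tested was -0.02 and -0.01. At least 2-fold higher were 26 genes in 769-P and 23 in CAKI-1. All 48 genes higher in CAKI-1 were also higher in 769-P. Together the 53 genes took 0.487% and 0.484% of the reads with BCAA and 0.258% and 0.257% without in 769-P. In CAKI-1 they took 0.274% and 0.265% with BCAA and 0.142% and 0.14% without, so the shares of the conditions did not overlap in either line.

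The test was limma on log2(value + 1), fitted over 22391 genes in 769-P and 21347 in CAKI-1, and a gene was called at a Benjamini-Hochberg adjusted p under 0.05, whatever its fold. Over all genes tested, 20.3% were called higher and 18.2% lower in 769-P, and 10.8% higher and 9.05% lower in CAKI-1. Over genes whose mean normalized value reached 100, which include all 53, the shares called higher were 34.1% and 18.7%. Higher and at least 2-fold were 4.42% of all genes in 769-P and 1.42% in CAKI-1, and 8.53% of the genes tested in both lines were higher in both. Both libraries with BCAA lay above both without for 51 of the 53 genes in each line, against 33.6% of all genes in 769-P and 28.9% in CAKI-1. With every 769-P library thinned to the depth of the shallowest library of the series, 50 of the 53 genes were called higher and their median was 0.98. In bulk RNA, a larger share of cells in S phase and more of these transcripts per cell cannot be told apart.

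The calls rest on 2 libraries per condition. With any 1 of the 4 CAKI-1 libraries left out, limma on the other 3 called none of its 21347 genes, hence 0 of the 53, while 48 or 49 of them had an unadjusted p under 0.05. With the same library left out, edgeR on the recovered reads called 45 to 48 of the 53 higher, and limma called 48 when the other 7 libraries of the series shared 1 spread. In 769-P the counts without 1 library were 37 to 40, 50 or 51 and 50, respectively.

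**Figure D1:**
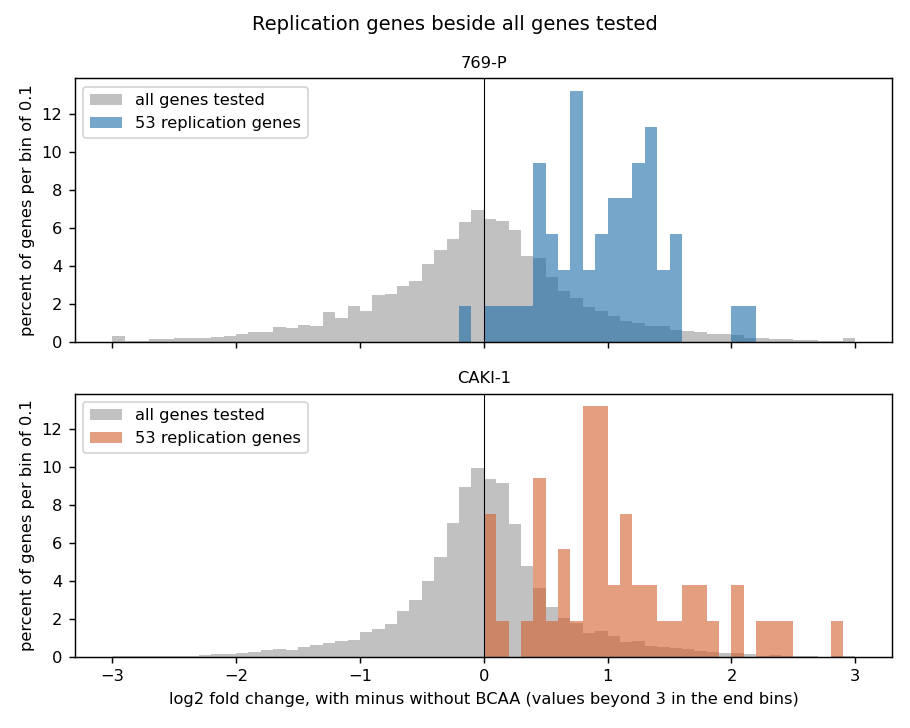
Distribution of the BCAA effect in 769-P (top) and CAKI-1 (bottom). The x axis is the log2 fold change, with minus without BCAA, in bins of 0.1, and the y axis the percent of genes per bin, for all genes tested (grey) and the 53 replication genes (colour). The grey bars centre near 0 and the coloured bars near 1, with medians of 0.99 and 0.95, and few of the 53 genes lie near 0.

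The spread between replicates was small beside these changes. The median absolute log2 difference between the 2 libraries of a condition, over the 53 genes, was 0.044 and 0.066 in 769-P with and without BCAA and 0.088 and 0.106 in CAKI-1. The largest of each condition was 0.19 for UHRF1 and 0.36 for CDC45 in 769-P with and without BCAA, and 0.34 for CLSPN and 0.59 for POLE2 in CAKI-1.

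**Figure D2:**
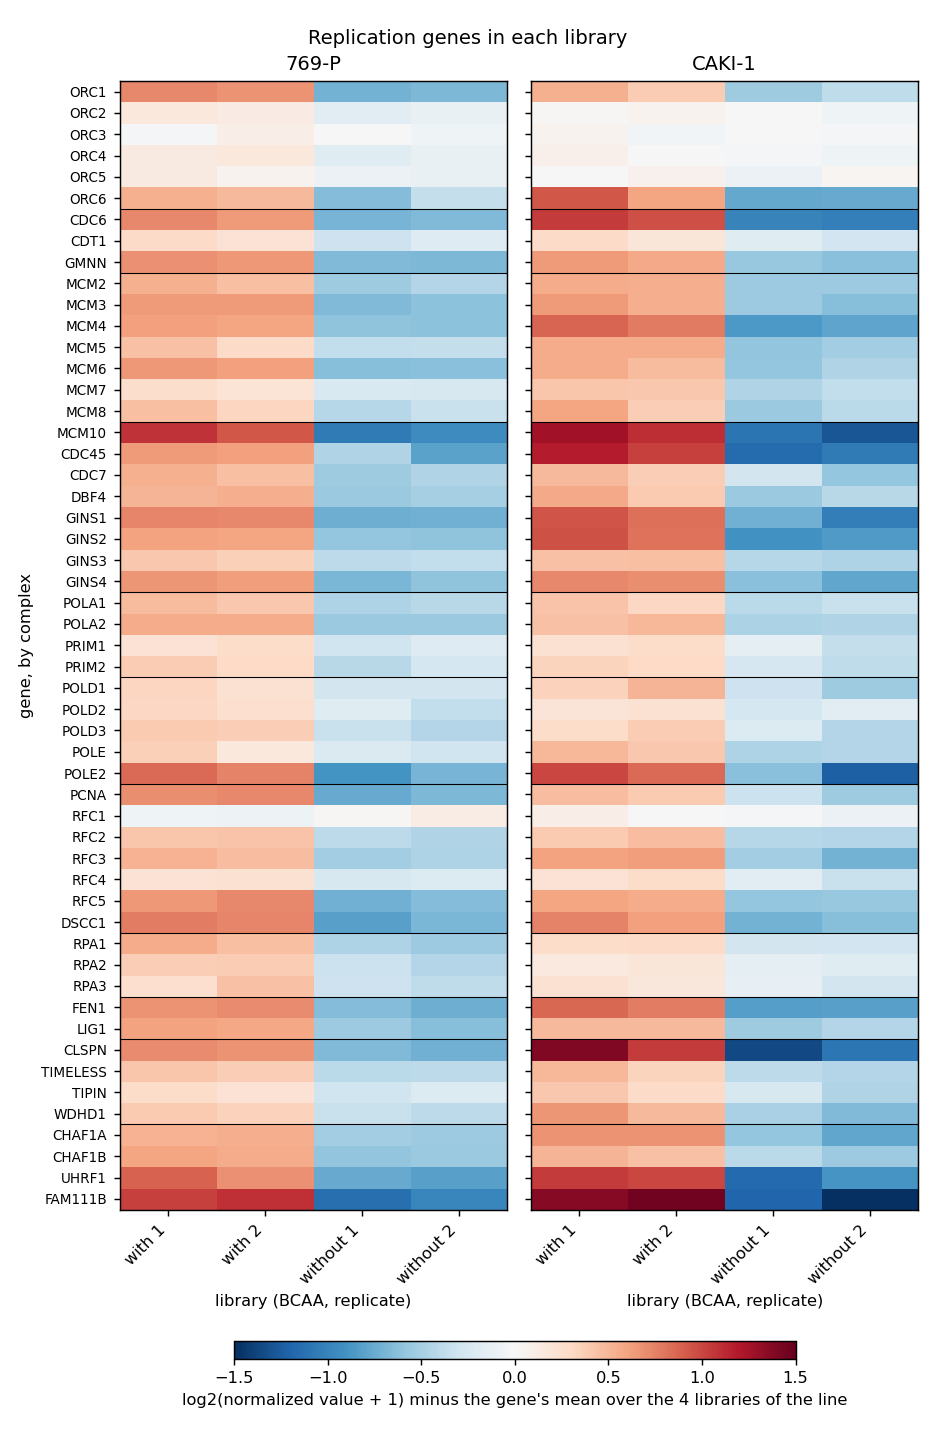
The 53 genes in each of the 8 libraries, grouped by complex (black lines). Colour is log2(normalized value + 1) minus the gene's mean over the 4 libraries of its line, from blue (low) to red (high). Both columns with BCAA are red and both without are blue in nearly every row, and ORC2, ORC3, ORC4, ORC5 and RFC1 are pale throughout.

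Promoters were read for what the genes that moved together share in sequence. RefSeq promoter windows of GRCh38.p14, each with 250 bases before and 50 after a gene's start, were found for 45 of the 53 genes. None was found for DSCC1, FAM111B, GINS4, MCM4, MCM5, POLD3, RPA2 and RPA3, so the promoter of FAM111B, the most changed gene, was not read. An E2F-type octamer, defined as TTTCCCGC, TTTGGCGC, TTTCGCGC or TTTGCCGC on either strand, stood in a window of 23 of the 45 (51.1%), and in 3.99% of the 27305 genes of the table. CCAAT on either strand stood in 27 of the 45 (60%), against 39.7% of all genes. TTTGAA or TTCGAA on either strand, the core letters of an element through which cell cycle genes are repressed in resting cells, stood in 2 of the 45 (4.44%), against 19.5%. The octamers TTTGGCGC and TTTCGCGC can overlap each other on opposite strands and are then counted as 2 matches of 1 gene. The shares are descriptions, and those over all genes were not limited to genes read in these lines.

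Genes with an octamer had a median log2 fold change of 1.12 in 769-P and 0.97 in CAKI-1, and the 22 without had 0.82 and 0.86. Genes with and without a match overlapped in their changes, and the match was not tested against the response. MCM10, the second most changed gene on the mean of both lines, had no octamer in its window, and ORC3, which did not pass the test in either line, had one. The windows below are of the 3 most changed genes with a window that holds an octamer (CLSPN, chr1:35769929-35770228, minus strand; UHRF1, chr19:4909251-4909550, plus strand; POLE2, chr14:49688165-49688464, minus strand), of the least changed gene without one (RFC1, chr4:39366313-39366612, minus strand), and of MCM6 (chr2:135876394-135876693, minus strand), which was added after the counts were seen because it holds the most matches. Capitals mark the octamers, and each sequence runs 5′ to 3′ along the gene's strand.

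CLSPN: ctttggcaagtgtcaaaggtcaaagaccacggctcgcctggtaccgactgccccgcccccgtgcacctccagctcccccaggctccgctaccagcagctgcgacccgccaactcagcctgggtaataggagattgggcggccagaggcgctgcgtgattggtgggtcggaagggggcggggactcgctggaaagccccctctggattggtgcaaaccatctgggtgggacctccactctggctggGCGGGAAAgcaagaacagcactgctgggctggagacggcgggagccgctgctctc
UHRF1: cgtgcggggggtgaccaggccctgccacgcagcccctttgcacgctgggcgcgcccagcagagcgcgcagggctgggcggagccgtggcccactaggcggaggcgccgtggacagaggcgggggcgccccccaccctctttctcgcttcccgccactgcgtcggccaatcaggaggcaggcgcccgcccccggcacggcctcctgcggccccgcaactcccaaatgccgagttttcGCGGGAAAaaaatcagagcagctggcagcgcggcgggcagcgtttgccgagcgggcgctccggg
POLE2: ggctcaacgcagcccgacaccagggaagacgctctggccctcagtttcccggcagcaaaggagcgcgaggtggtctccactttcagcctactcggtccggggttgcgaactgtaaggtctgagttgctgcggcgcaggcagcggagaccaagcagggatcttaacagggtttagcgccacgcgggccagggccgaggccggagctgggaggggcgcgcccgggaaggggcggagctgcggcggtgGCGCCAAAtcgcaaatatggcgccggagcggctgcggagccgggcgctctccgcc
RFC1: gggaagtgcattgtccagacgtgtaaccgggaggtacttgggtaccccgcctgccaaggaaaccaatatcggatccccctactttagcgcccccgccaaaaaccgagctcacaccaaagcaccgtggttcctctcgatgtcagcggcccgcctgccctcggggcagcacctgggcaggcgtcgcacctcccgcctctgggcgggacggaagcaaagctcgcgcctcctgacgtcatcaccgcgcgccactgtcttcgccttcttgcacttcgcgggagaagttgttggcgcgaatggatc
MCM6: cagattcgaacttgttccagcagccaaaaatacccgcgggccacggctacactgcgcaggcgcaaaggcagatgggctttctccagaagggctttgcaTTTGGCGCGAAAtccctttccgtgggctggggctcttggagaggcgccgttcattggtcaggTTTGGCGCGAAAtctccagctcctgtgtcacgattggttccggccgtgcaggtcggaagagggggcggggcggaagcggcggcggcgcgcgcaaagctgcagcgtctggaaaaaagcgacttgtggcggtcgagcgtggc

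The octamer begins 5 bases before the start in CLSPN and POLE2 and 14 before it in UHRF1 (positions -5, -5 and -14). MCM6 holds 4 matches as 2 overlapping pairs, beginning at -152 and -148 and at -90 and -86. No octamer is in the RFC1 window, which says only that these letters are not there.

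In the origin recognition complex, which marks origins for loading, only ORC1 and ORC6 were called higher in both lines. ORC1 encodes the largest subunit, an ATPase, and ORC6 the smallest, which is the least tightly bound. In 769-P, ORC1 had normalized values of 1794 and 1736 with BCAA and 665 and 684 without, and in CAKI-1 it had 652 and 585 with BCAA and 310 and 346 without. Its log2 fold changes were 1.39 ± 0.07 in 769-P (adjusted p = 2e-08) and 0.91 ± 0.11 in CAKI-1 (adjusted p = 0.00025). ORC6 had 2019.9 and 1959 with BCAA and 891 and 1088 without in 769-P and 1054 and 833 with BCAA and 323 and 328 without in CAKI-1, with changes of 1.01 ± 0.09 in 769-P (adjusted p = 2e-06) and 1.52 ± 0.12 in CAKI-1 (adjusted p = 9.7e-06). For both genes the libraries of the conditions lay apart in both lines.

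The other 4 subunits form the core of the complex and moved little. ORC3 had 2265 and 2472 with BCAA and 2304 and 2219.6 without in 769-P and 1463 and 1375 with BCAA and 1419 and 1399 without in CAKI-1, so its conditions overlapped in both lines (0.07 and 0.01, adjusted p = 0.45 and 0.94). ORC2 had 2523 and 2452 with BCAA and 2002 and 2091 without in 769-P and 1512 and 1546 with BCAA and 1484 and 1429.7 without in CAKI-1. ORC4 had 5731 and 5817 with BCAA and 4567 and 4799.9 without in 769-P and 2316 and 2206 with BCAA and 2147 and 2100.1 without in CAKI-1. Neither overlapped between conditions, yet each passed the test only in 769-P, with changes of 0.28 ± 0.06 and 0.3 ± 0.05 (adjusted p = 0.0019 and 0.0003). In CAKI-1 their values were 0.07 ± 0.07 and 0.09 ± 0.07 (adjusted p = 0.56 and 0.4), and the difference between the lines did not pass its own test for either (adjusted p = 0.1 and 0.068). ORC5 had 1467 and 1389 with BCAA and 1253 and 1239 without in 769-P (0.2 ± 0.07, adjusted p = 0.037), a call that was lost with no filter, with quantile normalization, on thinned reads, in DESeq2 and without any 1 of the 4 libraries. In CAKI-1 it had 1041 and 1098 with BCAA and 991 and 1069 without, with overlapping conditions (adjusted p = 0.71).

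Per kilobase of transcript, ORC1 had the lowest mean of the ORC transcripts in both lines and conditions. In 769-P its normalized value per kilobase was 559 ± 13 (SD, n = 2) with BCAA and 214 ± 4.27 without, and in CAKI-1 it was 196 ± 15 and 104 ± 8.14. In 769-P with BCAA it did not differ from ORC2 (577 ± 11.6) beyond the spread. In 769-P the most abundant was ORC6 with BCAA (1222 ± 26.4) and ORC3 without (904 ± 23.9). In CAKI-1 it was ORC3 without (563 ± 5.69), while with BCAA ORC6 (579 ± 95.9) did not differ from ORC3 (567 ± 24.8) or ORC5 (546 ± 20.7) beyond the spread. The ratio of the most to the least abundant ORC transcript was 2.19 with BCAA and 4.22 without in 769-P, and 2.95 and 5.41 in CAKI-1. The lengths are those of the principal coding transcript in GENCODE 29, and the transcript used by the cells may differ.

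Licensing factors were higher with BCAA in both lines, CDC6 most of all. CDC6 is the ATPase that joins the origin complex to load the MCM ring. It had 3677 and 3491 with BCAA and 1378 and 1414 without in 769-P and 2052 and 1933 with BCAA and 494 and 486 without in CAKI-1, with log2 fold changes of 1.36 ± 0.06 in 769-P (adjusted p = 5.1e-09) and 2.02 ± 0.08 in CAKI-1 (adjusted p = 1.7e-07). CDT1, its partner in loading, changed least of the licensing factors. It had 3979.9 and 3799 with BCAA and 2644 and 2874 without in 769-P and 1399 and 1306 with BCAA and 1017 and 945 without in CAKI-1, with changes of 0.5 ± 0.06 in 769-P (adjusted p = 2.4e-05) and 0.46 ± 0.08 in CAKI-1 (adjusted p = 0.002). GMNN, which encodes the CDT1 inhibitor geminin, rose by 1.33 and 1.2. The 95% confidence intervals of CDC6 and GMNN lay wholly above that of CDT1 in each line.

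All 7 genes of the MCM group rose in both lines. The 6 subunits of the ring differed among themselves in size of change. MCM4 changed most on the mean of both lines, with 15421 and 15156 with BCAA and 6632 and 6568 without in 769-P and 11467 and 10779.5 with BCAA and 3463 and 3630.2 without in CAKI-1, and changes of 1.21 ± 0.04 in 769-P (adjusted p = 8.1e-10) and 1.65 ± 0.06 in CAKI-1 (adjusted p = 7.7e-08). MCM7 changed least, with 19098 and 18379 with BCAA and 13538 and 13505 without in 769-P and 8404 and 8329.9 with BCAA and 4625 and 4873 without in CAKI-1, and changes of 0.47 ± 0.04 in 769-P (adjusted p = 1.8e-06) and 0.82 ± 0.06 in CAKI-1 (adjusted p = 4.1e-06). Of its exon bases, 8.9% overlap AP4M1 on the other strand. The log2 fold changes were 0.98 and 1.1 for MCM2, 1.28 and 1.18 for MCM3, 0.73 and 1.11 for MCM5 and 1.27 and 1.03 for MCM6, in 769-P and CAKI-1. MCM8, which is not in the ring and acts with MCM9 in repair, rose by 0.77 and 0.96. MCM9 is in the further list below and was not called in either line (0.04 and 0.14). Of the exon bases of MCM2, 23.6% overlap genes on the other strand, and strand use in the counting is not stated, so its value is less certain.

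The ring subunits were not equally abundant per kilobase, though the ring holds them in equal number. MCM7 was the highest in both lines and conditions, at 6337 ± 172 (SD, n = 2) with BCAA and 4573 ± 7.93 without in 769-P and at 2829.5 ± 17.6 and 1606 ± 59.5 in CAKI-1. With BCAA the lowest was MCM5 in both lines, at 2334 ± 175 in 769-P and 567 ± 1.51 in CAKI-1. MCM6, at 2349 ± 33.5 in 769-P with BCAA, did not differ from MCM5 beyond their spread. The ratio of the highest to the lowest was 2.71 with BCAA and 4.69 without in 769-P, and 4.99 and 6.13 in CAKI-1.

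**Figure D3:**
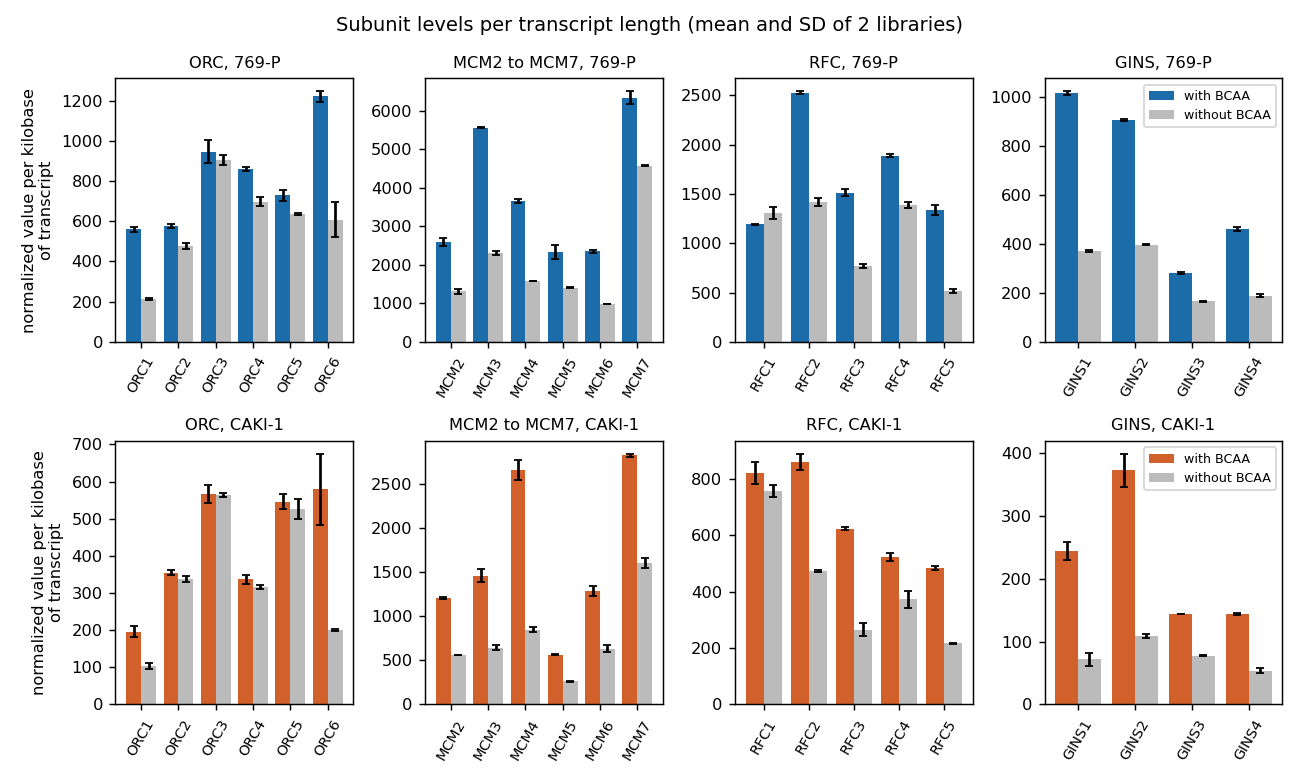
Normalized value per kilobase of transcript for subunits of ORC, the MCM2 to MCM7 ring, RFC and GINS in 769-P (top) and CAKI-1 (bottom). Bars are means of 2 libraries with BCAA (colour) and without (grey), with the SD, and each panel has its own y axis from 0. MCM7 is the tallest MCM bar in each condition, and the ORC2 to ORC5 and RFC1 bars differ less between conditions than the ORC1 and ORC6 bars.

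The genes that turn a licensed ring into an active helicase held some of the largest changes, and all 8 rose in both lines. MCM10, a factor needed to activate the helicase, is the gene ENSG00000065328, chr10:13161554-13211104 (hg38, plus strand). It had 3043 and 2720.2 with BCAA and 683 and 741 without in 769-P and 1797 and 1618 with BCAA and 349 and 308 without in CAKI-1, with log2 fold changes of 2.01 ± 0.08 in 769-P (adjusted p = 1.7e-09) and 2.38 ± 0.10 in CAKI-1 (adjusted p = 1.7e-07). CDC45, the helicase cofactor, had 1775 and 1735 with BCAA and 832 and 648 without in 769-P and 556 and 500 with BCAA and 109 and 117 without in CAKI-1. Its changes were 1.26 ± 0.10 in 769-P (adjusted p = 1.1e-06) and 2.21 ± 0.14 in CAKI-1 (adjusted p = 2.1e-06). In neither gene did a library with BCAA come near a library without.

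The 4 GINS genes, whose products form 1 ring-shaped cofactor of the helicase, rose by unequal amounts. GINS2 had 2431 and 2412 with BCAA and 1068 and 1055 without in 769-P and 1047 and 946 with BCAA and 286 and 299 without in CAKI-1, with changes of 1.19 ± 0.06 in 769-P (adjusted p = 2.3e-08) and 1.76 ± 0.10 in CAKI-1 (adjusted p = 1.3e-06). GINS3 changed least of the origin firing genes on the mean of both lines, with 646 and 629 with BCAA and 371 and 380 without in 769-P and 328 and 329 with BCAA and 179 and 175 without in CAKI-1, and changes of 0.76 ± 0.10 in 769-P (adjusted p = 4.6e-05) and 0.89 ± 0.13 in CAKI-1 (adjusted p = 0.00086). GINS1 had log2 fold changes of 1.45 and 1.76 and GINS4 of 1.29 and 1.41. Of the exon bases of GINS4, 23.6% overlap genes on the other strand, and of those of GINS3, 10.9%. The kinase that fires origins rose in both of its subunits, by 0.99 and 0.86 for the catalytic CDC7 and 1.05 and 0.97 for its activator DBF4.

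Polymerase alpha with primase, which lays down the first stretch of RNA and DNA, rose in all 4 subunits in both lines. POLA2, the accessory subunit, had 2021 and 2015 with BCAA and 930 and 929 without in 769-P and 1283 and 1334 with BCAA and 680 and 690 without in CAKI-1, with log2 fold changes of 1.12 ± 0.06 in 769-P (adjusted p = 5.8e-08) and 0.93 ± 0.08 in CAKI-1 (adjusted p = 1.8e-05). PRIM1, the catalytic primase, had 1192 and 1241 with BCAA and 837 and 899 without in 769-P and 785 and 809 with BCAA and 609 and 521 without in CAKI-1, with changes of 0.49 ± 0.07 in 769-P (adjusted p = 0.00023) and 0.5 ± 0.10 in CAKI-1 (adjusted p = 0.0049). The exon bases of POLA2 and PRIM1 overlap other genes for 35.1% and 21.6%, which leaves their values less certain. POLA1, the catalytic polymerase, had 0.88 and 0.73, and PRIM2 had 0.68 and 0.63.

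All 5 genes of the polymerases that copy most of the genome rose in both lines, POLE2 most of all. Polymerase epsilon copies the leading strand, and POLE2 is its second subunit. POLE2 had 400 and 372 with BCAA and 119 and 137 without in 769-P and 208 and 187 with BCAA and 66.5 and 43.8 without in CAKI-1, with log2 fold changes of 1.59 ± 0.15 in 769-P (adjusted p = 3.1e-06) and 1.85 ± 0.24 in CAKI-1 (adjusted p = 0.00031). It was the least counted gene, and its change in CAKI-1 was 1.56 to 2.15 with 1 library left out. POLE, the catalytic subunit, rose by 0.52 and 0.9. Polymerase delta copies the lagging strand, and its accessory subunit POLD2 changed least of the 5 on the mean of both lines, with 6208 and 5963 with BCAA and 4422 and 3896 without in 769-P and 4209 and 4315 with BCAA and 3049.8 and 3292 without in CAKI-1, and changes of 0.55 ± 0.06 in 769-P (adjusted p = 1.5e-05) and 0.43 ± 0.06 in CAKI-1 (adjusted p = 0.00073). The catalytic POLD1 had 0.55 and 0.85 and the accessory POLD3 0.77 and 0.65.

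Among the clamp and its loaders, PCNA, RFC2 to RFC5 and DSCC1 rose in both lines and RFC1 did not. PCNA had 14069 and 14309.7 with BCAA and 5137 and 5418 without in 769-P and 3908 and 3745 with BCAA and 2282 and 1959 without in CAKI-1, with log2 fold changes of 1.43 ± 0.05 in 769-P (adjusted p = 5.2e-10) and 0.86 ± 0.08 in CAKI-1 (adjusted p = 2.8e-05). DSCC1, a subunit of the alternative loader built around CTF18, changed most of the loaders. It had 1767 and 1719.7 with BCAA and 588 and 643 without in 769-P and 969 and 887 with BCAA and 353 and 371 without in CAKI-1, with changes of 1.5 ± 0.08 in 769-P (adjusted p = 2e-08) and 1.36 ± 0.10 in CAKI-1 (adjusted p = 5.4e-06). The small subunits that all the loaders share had 0.84 and 0.86 (RFC2), 0.98 and 1.23 (RFC3), 0.44 and 0.49 (RFC4) and 1.37 and 1.15 (RFC5). Of the exon bases of RFC5, 10.6% overlap genes on the other strand.

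RFC1 encodes the large subunit found only in the PCNA loader (ENSG00000035928, chr4:39287456-39366375, hg38, minus strand). It had 5814 and 5759 with BCAA and 6146 and 6573 without in 769-P and 4121 and 3860 with BCAA and 3753 and 3614 without in CAKI-1. In 769-P both libraries with BCAA lay below both without, and in CAKI-1 both lay above. The changes were -0.14 ± 0.05 in 769-P (adjusted p = 0.047) and 0.12 ± 0.06 in CAKI-1 (adjusted p = 0.24). The 769-P call was lost under 6 of the other settings, among them the other scalings by TMM and by the median of all genes, and without any 1 of its libraries, with values from -0.18 to -0.09. Per kilobase, RFC1 was the lowest RFC transcript in 769-P with BCAA (1191 ± 7.96, SD, n = 2) and RFC5 was the lowest without (516 ± 17.5). The ratio of the highest to the lowest RFC transcript was 2.12 with BCAA and 2.74 without in 769-P, and 1.78 and 3.49 in CAKI-1.

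Replication protein A, which coats single-stranded DNA, rose in all 3 subunits in both lines. RPA1, the large subunit, had 13150.5 and 12270.2 with BCAA and 6486 and 6159.8 without in 769-P and 6189 and 6229 with BCAA and 4192 and 4163 without in CAKI-1, with changes of 1.01 ± 0.05 in 769-P (adjusted p = 1.4e-08) and 0.57 ± 0.06 in CAKI-1 (adjusted p = 4.4e-05). RPA2, the middle subunit, had 1249 and 1258 with BCAA and 768 and 712 without in 769-P and 1072 and 1103 with BCAA and 881 and 856 without in CAKI-1, with changes of 0.76 ± 0.08 in 769-P (adjusted p = 6.5e-06) and 0.32 ± 0.08 in CAKI-1 (adjusted p = 0.014). RPA3 had 0.7 and 0.4. The medians of the 3 subunits were 0.76 in 769-P and 0.4 in CAKI-1, and the latter was the smallest of the 11 complexes in CAKI-1 after that of the origin recognition complex.

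The enzymes that finish lagging strand fragments both rose. FEN1, the flap nuclease, had 5012 and 5136 with BCAA and 2006 and 1898 without in 769-P and 3332 and 3117 with BCAA and 1036 and 1044 without in CAKI-1, with log2 fold changes of 1.38 ± 0.05 in 769-P (adjusted p = 2.4e-09) and 1.63 ± 0.07 in CAKI-1 (adjusted p = 1.7e-07). LIG1, the ligase that seals the nicks, had 5146 and 5080.3 with BCAA and 2334 and 2189 without in 769-P and 1604 and 1592 with BCAA and 789 and 839 without in CAKI-1, with changes of 1.18 ± 0.05 in 769-P (adjusted p = 8.4e-09) and 0.97 ± 0.08 in CAKI-1 (adjusted p = 1e-05).

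Of the fork protection genes, CLSPN stood out. It encodes claspin, an adaptor that links the fork to checkpoint kinase signalling, and is the gene ENSG00000092853, chr1:35720218-35769967 (hg38, minus strand). It had 2591 and 2520.1 with BCAA and 997 and 958 without in 769-P and 1236 and 975 with BCAA and 185 and 223 without in CAKI-1, with changes of 1.39 ± 0.06 in 769-P (adjusted p = 8.3e-09) and 2.43 ± 0.14 in CAKI-1 (adjusted p = 1.1e-06). TIPIN, the partner of TIMELESS, had 883 and 846 with BCAA and 592 and 630 without in 769-P and 665 and 612 with BCAA and 426 and 367 without in CAKI-1, with changes of 0.5 ± 0.08 in 769-P (adjusted p = 0.00045) and 0.69 ± 0.11 in CAKI-1 (adjusted p = 0.0013). A pseudogene of RPL9 on the same strand covers part of its exons (21.0% of the bases overlap). TIMELESS rose by 0.79 and 0.83, and WDHD1, which tethers polymerase alpha to the helicase, by 0.73 and 1.15.

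The largest change of all 53 genes in either line was that of FAM111B, which encodes a protease related to the replication factor FAM111A (ENSG00000189057, chr11:59107185-59127410, hg38, plus strand). It had 2918 and 3050.2 with BCAA and 651 and 723 without in 769-P and 1013 and 1077 with BCAA and 172 and 126 without in CAKI-1, with changes of 2.12 ± 0.07 in 769-P (adjusted p = 7.8e-10) and 2.82 ± 0.15 in CAKI-1 (adjusted p = 5.6e-07), or 4.35-fold and 7.05-fold. UHRF1, which reads newly copied, hemimethylated DNA and brings in the maintenance methyltransferase, had 2802 and 2449 with BCAA and 902 and 866 without in 769-P and 1837 and 1785 with BCAA and 394 and 479 without in CAKI-1. Its changes were 1.57 ± 0.08 in 769-P (adjusted p = 1.2e-08) and 2.06 ± 0.10 in CAKI-1 (adjusted p = 4.6e-07). The subunits of CAF-1, which places histones on new DNA, rose too. CHAF1B had 2133 and 2086 with BCAA and 938 and 958 without in 769-P and 1077 and 1018 with BCAA and 568 and 517 without in CAKI-1, with changes of 1.15 ± 0.06 in 769-P (adjusted p = 4.3e-08) and 0.95 ± 0.09 in CAKI-1 (adjusted p = 4.1e-05), and CHAF1A had 1.07 and 1.36.

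**Figure D4:**
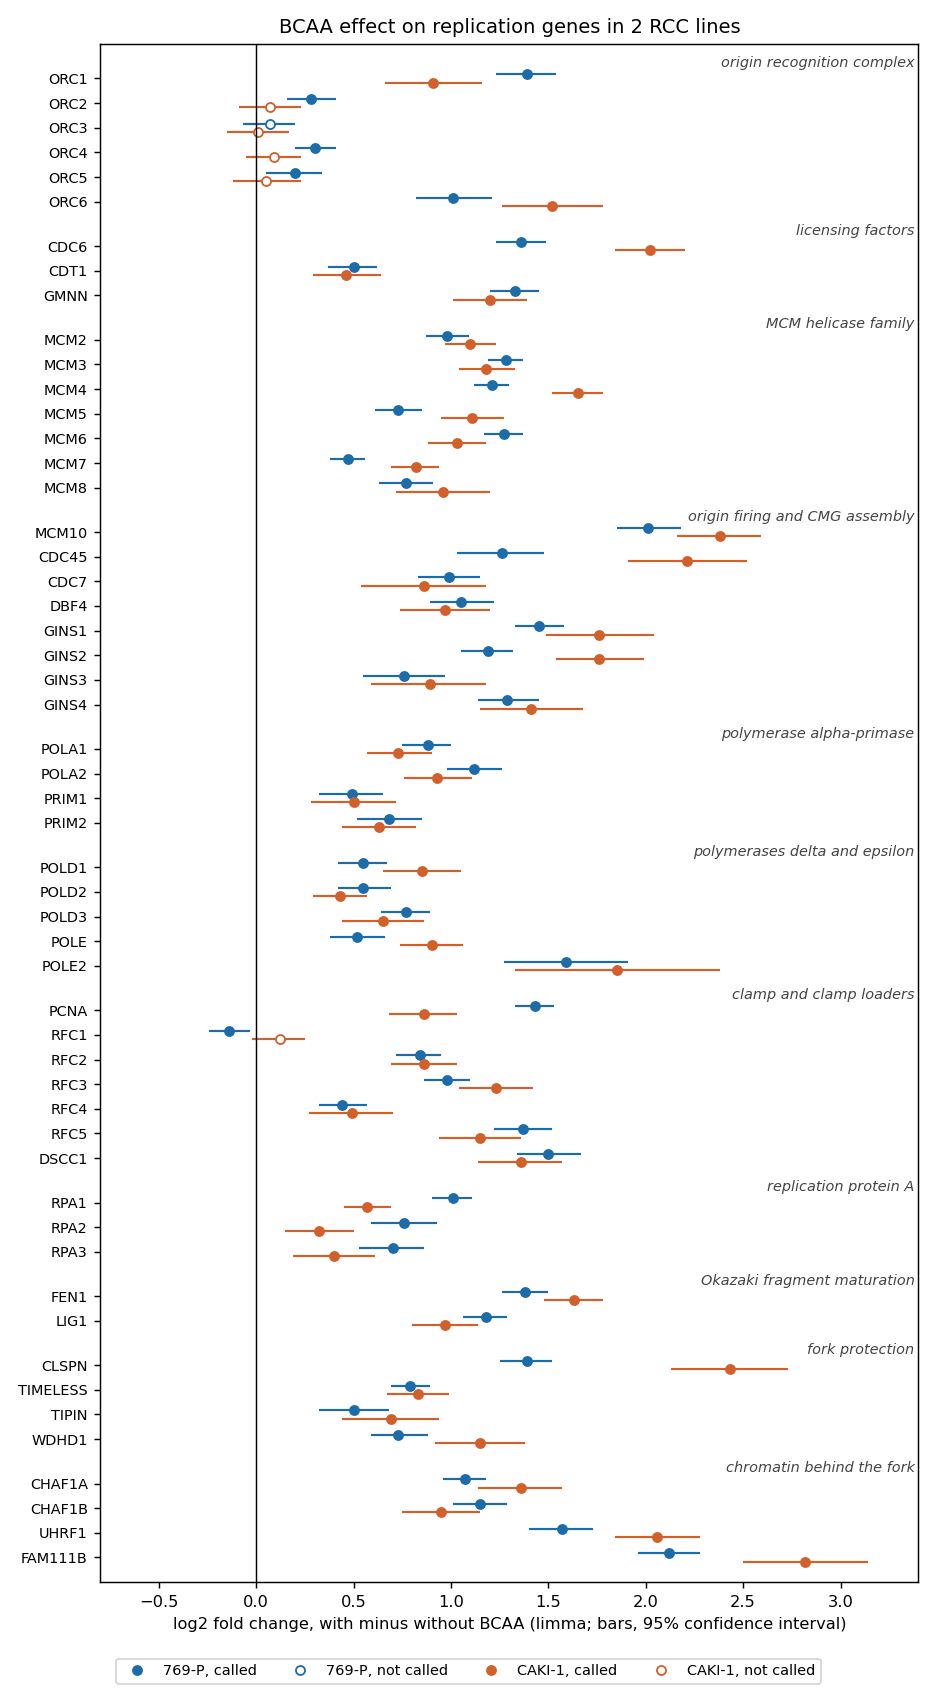
Log2 fold change of each of the 53 genes, with minus without BCAA, in 769-P (blue) and CAKI-1 (orange), grouped by complex. Points are limma estimates from 4 libraries per line with 95% confidence intervals, filled where called at an adjusted p under 0.05. ORC2 to ORC5 and RFC1 lie between -0.14 and 0.3, while FAM111B (2.12 and 2.82) lies farthest to the right in both lines, followed by MCM10 (2.01) in 769-P and CLSPN (2.43) in CAKI-1.

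By complex, the median log2 fold change was largest for chromatin behind the fork (1.36 in 769-P and 1.71 in CAKI-1), origin firing (1.22 and 1.59), licensing (1.33 and 1.2) and Okazaki fragment maturation (1.28 and 1.3). It was 0.98 and 1.1 for the MCM genes, 0.98 and 0.86 for the clamp and its loaders, 0.76 and 0.99 for fork protection, 0.78 and 0.68 for polymerase alpha with primase, 0.55 and 0.85 for polymerases delta and epsilon and 0.76 and 0.4 for replication protein A. The origin recognition complex had the smallest median in both lines (0.29 and 0.08). The chromatin group holds FAM111B (2.12 and 2.82) beside UHRF1 (1.57 and 2.06), CHAF1A (1.07 and 1.36) and CHAF1B (1.15 and 0.95). Its place at the top depends on counting FAM111B there. The complexes hold 2 to 8 genes each, and these medians were not tested against each other.

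Across the 53 genes, the 2 lines ordered the changes alike, with a Pearson correlation of 0.85 and a Spearman correlation of 0.84 between their log2 fold changes. This is across genes, which are not independent replicates, and no library is shared between the lines. The median difference, 769-P minus CAKI-1, was -0.04, and 29 of the 53 genes had the larger change in CAKI-1.

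For 18 of the 53 genes the BCAA effect differed between the lines by the interaction term of a limma fit over all 8 libraries and 19406 genes. It was further up in 769-P for 4 genes and further up in CAKI-1 for 14. As 769-P had been grown in RPMI 1640 and CAKI-1 in MEM, line and growth medium cannot be told apart here. Over all genes tested, the effect was further up in 769-P for 10.9% and further down in 769-P for 10.1%, and over genes whose mean reached 100 in each line for 17.4% and 15.9%. Beside genes of such levels, the total of 18 is near the background, and its split of 4 against 14 is uneven where the background's is nearly even.

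The 4 further up in 769-P were PCNA (difference 0.57, 95% confidence interval 0.37 to 0.77, adjusted p = 0.00067), ORC1 (0.47, 0.19 to 0.76, adjusted p = 0.02), RPA1 (0.44, 0.28 to 0.59, adjusted p = 0.00072) and RPA2 (0.44, 0.21 to 0.67, adjusted p = 0.01). These are the clamp, the coat of single-stranded DNA and 1 origin subunit. Further up in CAKI-1 were, most of all, CLSPN (-1.04, -1.39 to -0.70, adjusted p = 0.0004) and the helicase cofactor CDC45 (-0.96, -1.32 to -0.59, adjusted p = 0.0013). FAM111B (-0.70, adjusted p = 0.011), CDC6 (-0.66, adjusted p = 0.00021), GINS2 (-0.58, adjusted p = 0.0022) and ORC6 (-0.51, adjusted p = 0.039) followed, with differences of at least 0.5. The other 8 were UHRF1, MCM4, WDHD1, MCM5, POLE, MCM7, RFC1 and FEN1, with differences from -0.49 to -0.25. At the same threshold, 10 of the 18 kept their call under every other scaling, filter, depth and tool tried and without any 1 library. They were PCNA, RPA1 and RPA2 on the 769-P side and CLSPN, CDC45, CDC6, GINS2, MCM4, MCM5 and MCM7 on the CAKI-1 side. The call of FEN1 (adjusted p = 0.049) was the weakest and was lost under 8 other settings and without 7 of the 8 libraries in turn.

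**Figure D5:**
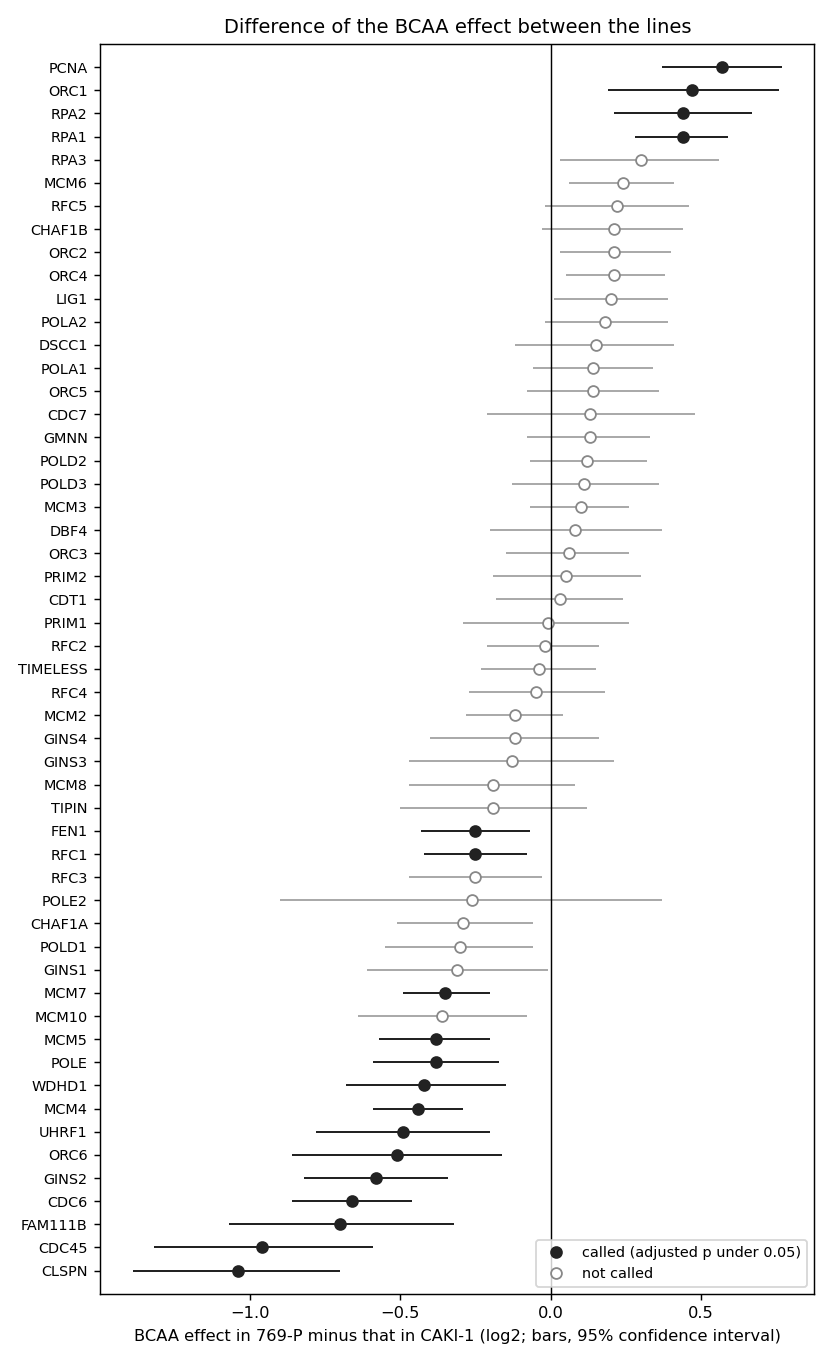
Difference of the BCAA effect between the lines, as the log2 fold change in 769-P minus that in CAKI-1, for each of the 53 genes in order. Points are interaction terms of limma over 8 libraries with 95% confidence intervals, filled where called at an adjusted p under 0.05. PCNA (0.57) is at the top, CLSPN (-1.04) and CDC45 (-0.96) are at the bottom, and 35 genes in between are not called.

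A further list of 34 replication genes outside the 53 was read from the same fits. In 769-P, 29 of the 34 were higher, 2 were lower and 3 did not pass the test. Of the same 34, 25 were higher in CAKI-1, 1 was lower and 8 did not pass. The background over all genes tested was 20.3% higher and 18.2% lower in 769-P, and 10.8% and 9.05% in CAKI-1. Among genes whose mean normalized value reached 100, 34.1% were higher in 769-P and 18.7% in CAKI-1. The list was not tested against these shares. For the 34 listed genes, the median change on the log2 scale was 0.62 in 769-P and 0.7 in CAKI-1. TICRR, which brings CDC45 to the ring, had 1.31 and 1.51, and the histone chaperone ASF1B had 1.75 and 1.88. POLD4, the small subunit of polymerase delta, was lower in both lines (-0.22 and -0.31, adjusted p = 0.038 and 0.046). RIF1, which restrains origin firing, was lower in 769-P (-0.14) and higher in CAKI-1 (0.28), and this difference passed its test (adjusted p = 0.0045). PCLAF, which binds the PCNA clamp, rose more in 769-P (1.87 against 0.6, adjusted p of the difference = 4.4e-07), as PCNA itself did. The exon bases of PCLAF and POLD4 overlap another gene on the same strand for 28.8% and 21.3%, which leaves their values less certain. DTL, which targets CDT1 for destruction on the clamp, rose more in CAKI-1 (0.81 against 1.54, adjusted p of the difference = 5.7e-05).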

How the data were processed

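RNA-seq libraries of 769-P and CAKI-1 were grouped by the cell line and treatment in their labels, 2 per condition. Per the submitters' processing notes, reads were trimmed with Trim Galore, aligned with TopHat2 2.1.0 to hg38, handled with SAMtools 1.3.1 and counted with HTSeq 0.6.0, and DESeq and DESeq2 are named. The annotation and the use of strand in counting are not given in the sources used here. The authors deposited, per cell line, a signal per gene, which is reads divided by a size factor of the library. All values (100%) were whole multiples of 1 read within 0.01, so reads were recovered, between 30979773 and 64256834 per library on listed genes. The floor of 3 reads covers counting error only, and confidence intervals and p-values come from the spread between libraries.

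Symbols and positions came from GENCODE 29, promoter windows from RefSeq. Genes whose mean value reached 1 were tested with limma 3.58.1 (trend) on log2(value + 1) in each line, in R 4.3.3, with Benjamini-Hochberg adjustment over all genes tested, and the difference between lines with an interaction term over 8 libraries. This scale understates changes of genes with few reads. The limma test within a line was tried on simulated reads, and the interaction term was not. Replicates differed by more than sampling noise (chi-square of 3.36 to 12.9 per degree of freedom) and each counted once. Alternatives changed the pseudocount, filter, scaling, depth, threshold, spread, block, tool (edgeR 4.0.16 and DESeq2 1.42.0 on recovered reads) and libraries. Libraries left out with edgeR or with a spread shared by the other 7 were added after seeing the data.

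The 53 genes, the other lists and the tests were chosen with earlier results of these data known. Values in every library are given for the genes with the largest and smallest mean change in each complex, those not higher in both lines and those whose effect differed between lines by at least 0.5. ORC1 and UHRF1 and the genes named from the further list were added after their values were seen. The lists were 34 further replication genes, 8 renal carcinoma markers, 1 of which is not reported here, and 7 markers of other cell types.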

Additional observations from a re-analysis of the deposited data

Results flagged for a closer look

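The BCAA effect differed between 769-P and CAKI-1 for 18 of the 53 genes by the limma interaction term. This total is near the background. Over genes whose mean reached 100 in each line, the effect was further up in 769-P for 17.4% and further down for 15.9%. Of the 18, 10 kept the call in every alternative and 8 lost it in 1 or more. No condition holds more than 2 libraries, so single libraries were not tested as standing apart. Given as 769-P minus CAKI-1 on the log2 scale, the effect was further up in 769-P for PCNA (0.57, adjusted p = 0.00067), ORC1 (0.47, adjusted p = 0.02), RPA1 (0.44, adjusted p = 0.00072) and RPA2 (0.44, adjusted p = 0.01). It was further up in CAKI-1 for CLSPN (-1.04, adjusted p = 0.0004), CDC45 (-0.96, adjusted p = 0.0013), FAM111B (-0.70, adjusted p = 0.011), CDC6 (-0.66, adjusted p = 0.00021), GINS2 (-0.58, adjusted p = 0.0022) and ORC6 (-0.51, adjusted p = 0.039). Smaller differences in that direction were those of UHRF1 (-0.49, adjusted p = 0.019), MCM4 (-0.44, adjusted p = 0.00055), WDHD1 (-0.42, adjusted p = 0.029), MCM5 (-0.38, adjusted p = 0.0059), POLE (-0.38, adjusted p = 0.014), MCM7 (-0.35, adjusted p = 0.002), RFC1 (-0.25, adjusted p = 0.035) and FEN1 (-0.25, adjusted p = 0.049). RFC1 is the only one of them whose libraries with BCAA lay on opposite sides of those without in the 2 lines.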

How the results depend on the processing

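At least 2-fold, 26 genes were higher in 769-P, 23 in CAKI-1 and 19 in both, and the effect differed between lines for 1, or for 4 at 1.5-fold and 10 at an adjusted p of 0.01. The number lower in 769-P fell from 1 to 0 with a pseudocount of 0.1, no filter, median centring, TMM, the replicate block, the spread of all 8 libraries, either fold threshold and an adjusted p of 0.01. Quantile normalization gave a median of 0.94 in 769-P, and median centring 0.99 in CAKI-1. With 1 library left out, limma called 37 to 40 higher in 769-P and 0 in CAKI-1, with 0 to 40 in both, 0 lower, 11 to 20 differing and medians of 0.95 to 1.03 and 0.91 to 0.99. A spread shared by the other 7 libraries gave 50, 48 and 48. ORC3 in CAKI-1 was -0.04 with quantile normalization and thinned reads, -0.00 with TMM and edgeR and -0.03 to 0.05 with 1 library left out, and ORC5 was -0.00 to 0.11 with 1 left out. The causes were not tested.

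Replicate numbers did not pair the samples (correlation of same-numbered deviations -0.088 in 769-P and 0.061 in CAKI-1). With the replicate block, 51 and 48 genes were higher, 0 were lower, 48 were higher in both and the effect differed for 16.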
